A study of Rattus norvegicus with 4 samples.

Results

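The Wnt pathway genes described here are the secreted Wnt ligands, the Frizzled receptors and the secreted inhibitors of the pathway. Members were taken by symbol: every gene named Wnt, Fzd, Sfrp or Dkk followed by a number, together with Frzb and Wif1. Of 39 such genes in the reference gene table, 35 were matched by accession to a probe on the array, among 26633 genes and transcripts in all. They are 17 Wnt ligands, 9 Frizzled receptors, 5 Frizzled-related inhibitors (the Sfrp genes and Frzb) and 4 Dkk genes, while Fzd7, Wif1, Wnt2 and Wnt3a had no matched probe.

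Levels were read on 4 Agilent arrays, each with 1 dye, hybridised with RNA of the soleus, a slow muscle of the calf, from male rats. There were 4 groups: normal and regenerated muscle, both from rats aged 16 weeks, and overloaded muscle and regenerated overloaded muscle, both aged 18 weeks. Regenerated muscle had been injected 8 weeks earlier with an agent the labels call CTX (in regeneration work usually cardiotoxin, a venom toxin that destroys fibres), and the interval is not given for regenerated overloaded muscle. The labels call the overloaded muscle hypertrophied, without saying how the load was raised, which strain was used or whether any rats were shared between groups. Titles of the uninjured groups carry the letter R and those of the injured groups the letter L. No label explains these letters, and whether they mark opposite legs of the same rats is not known. Each array carried RNA pooled in equal parts from 6 muscles of 1 group, so n = 1 per group, no difference has a replicate check and no p-value is given. Both overloaded groups were older and lay in the other row of the slide, so overload, age and slide row cannot be told apart.

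Wnt proteins are lipid-modified signals that act over short distances on Frizzled receptors. With an LRP co-receptor the Frizzled receptor stabilises beta-catenin, which switches on target genes with TCF/LEF factors, and other branches act through cell polarity and calcium. Sfrp proteins and Frzb carry a Frizzled-like domain and bind Wnt outside the cell, Wif1 also binds Wnt, and Dkk1, Dkk2 and Dkk4 act on the LRP co-receptor, whereas Dkk3 is a divergent member of that family. In skeletal muscle the pathway is known for its part in satellite cell behaviour, fibre growth and the choice of connective tissue cells between fibrous and fat fates.

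Signals are given as the scanner's processed signal scaled so that the 75th percentile of each array is 1000. Levels of different genes come from different probes and are not compared as amounts of RNA. Sums over marker lists add such signals, so the brightest probes weigh most in them. The dimmest spot marked by the scanner as well above background had a scaled signal of 41.8 in normal muscle. It was 19.0 to 23.5 on the other arrays, although some brighter spots were not marked. Of probe spots, 60.4% were above background on the normal array against 68.1% to 70.6% on the others. Errors are technical standard errors (SE) of a log2 difference and cover only the scatter of spots that carry the same probe within an array. The limit for counting a gene is 2-fold, and where a gene was above background on 1 of the 2 arrays its smallest difference is taken against the other array's lowest signal above background. The slow-muscle genes Myh7, Tnnt1 and Tnnc1 were above background on every array, as were all 7 skeletal muscle markers.

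Of the 35 members, 23 were above background on at least 1 array and 16 on all 4. The 12 others, Wnt2b, Wnt3, Wnt4, Wnt6, Wnt7b, Wnt8a, Wnt8b, Wnt9a, Wnt10a, Fzd5, Dkk1 and Dkk4, were not well above background on any array, by any of their probes. A further 6 members, Wnt5a, Wnt10b, Fzd2, Fzd3, Sfrp1 and Dkk2, were above background on every array except the normal one. That array also had the highest limit, 41.8 against 19.0 to 23.5, so the pattern by itself is not a difference in level. Dkk2 and Fzd3 lay under 41.8 on every array, and their smallest difference from normal muscle was 0. Wnt9b was above background in overloaded muscle alone, on 1 spot. In all, 6 members were 2-fold or more apart in at least 1 comparison: Sfrp2, Sfrp4, Dkk3 and Fzd1 on the higher side after injury or overload, and Wnt16 and Fzd4 on the lower side.

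RefSeq promoter sequences (build GRCr8) were held for 24 of the 35 members, Sfrp2, Fzd1, Fzd4 and Wnt16 among the 6. The 250 bases before the start of 3 of them are shown 5′ to 3′, with motif matches in capitals. Sfrp2 was higher after injury and after overload. Wnt16 and Fzd4 were lower in regenerated overloaded than in regenerated muscle, Fzd4 on 1 dim spot with a technical 95% interval that included 0. The windows lie at chr2:171387286-171387535 for Sfrp2, chr1:152692257-152692506 for Fzd4 and chr4:51786478-51786727 for Wnt16, each on the plus strand.
Sfrp2: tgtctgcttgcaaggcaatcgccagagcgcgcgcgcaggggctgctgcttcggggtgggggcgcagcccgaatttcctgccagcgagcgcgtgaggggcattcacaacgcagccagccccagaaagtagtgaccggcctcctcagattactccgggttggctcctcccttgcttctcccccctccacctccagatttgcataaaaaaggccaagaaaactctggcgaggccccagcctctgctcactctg
Fzd4: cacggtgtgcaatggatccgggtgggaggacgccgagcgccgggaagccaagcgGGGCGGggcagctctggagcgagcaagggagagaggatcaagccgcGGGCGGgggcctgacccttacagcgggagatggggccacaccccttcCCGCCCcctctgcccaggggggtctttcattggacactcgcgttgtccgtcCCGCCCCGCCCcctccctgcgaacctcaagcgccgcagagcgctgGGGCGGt
Wnt16: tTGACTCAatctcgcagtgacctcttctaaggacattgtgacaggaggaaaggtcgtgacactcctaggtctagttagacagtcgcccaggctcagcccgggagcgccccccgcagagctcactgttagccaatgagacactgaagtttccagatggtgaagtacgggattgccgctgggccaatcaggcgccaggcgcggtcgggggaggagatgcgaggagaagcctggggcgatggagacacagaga

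The motifs searched on both strands were the TATA box TATAAA, the GC box GGGCGG, the AP-1 site TGANTCA, the TCF/LEF site ATCAAAG and the CArG box bound by serum response factor. Fzd4 held 6 GC boxes, of which 2 overlap, Wnt16 held 1 AP-1 match that starts 249 bases before the gene, and Sfrp2 and Fzd1 held none of the 5 motifs. Of 33469 promoters of the same length, 30.5% held a GC box, 12.9% the TATA box, 6.34% the AP-1 site, 3.15% the TCF/LEF site and 1.497% the CArG box. Among the 24 members, 12 held a GC box, 1 the TATA box (Dkk1), 1 the AP-1 site and none the other 2 motifs. These matches describe letters in a window and say nothing of binding.

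Among the secreted inhibitors, Sfrp4 and Sfrp2 had the widest differences of all members. Sfrp4, an inhibitor best known for its role in bone, had a scaled signal of 611 in normal, 1961 in regenerated, 3778 in overloaded and 4574 in regenerated overloaded muscle. Its 2 spots lay between 599 and 624 on the normal array and between 4465 and 4685 on the regenerated overloaded array, so that spots of different arrays did not overlap. Sfrp2, an inhibitor expressed by fibroblasts, had a scaled signal of 71.8, 188, 329 and 398 in the same order of groups. Both genes were lowest in normal muscle and highest where injury and overload came together.

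Regenerated muscle had 3.21-fold more Sfrp4 signal than normal muscle (log2 difference 1.68, technical SE 0.074) and 2.62-fold more Sfrp2 (1.39, technical SE 0.32). Overloaded muscle had 6.18-fold more Sfrp4 than normal muscle (log2 difference 2.63, technical SE 0.072) and 4.58-fold more Sfrp2 (2.20, technical SE 0.32). In regenerated overloaded against regenerated muscle Sfrp4 was 2.33-fold higher (log2 difference 1.22, technical SE 0.057) and Sfrp2 2.12-fold higher (1.08, technical SE 0.085). Between the 2 overloaded groups both differed by 0.28 and 0.27 on the log2 scale, which is 1.21-fold for each. Sfrp2 was dim in normal muscle, at 71.8 against a lowest signal above background of 41.8. With normexp, a background correction that compresses differences between dim spots, its folds were 1.62, 2.52 and 1.83 in the first 3 comparisons. Sfrp4 kept 2.87-fold, 5.48-fold and 2.25-fold with that correction.

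**Figure D1:**
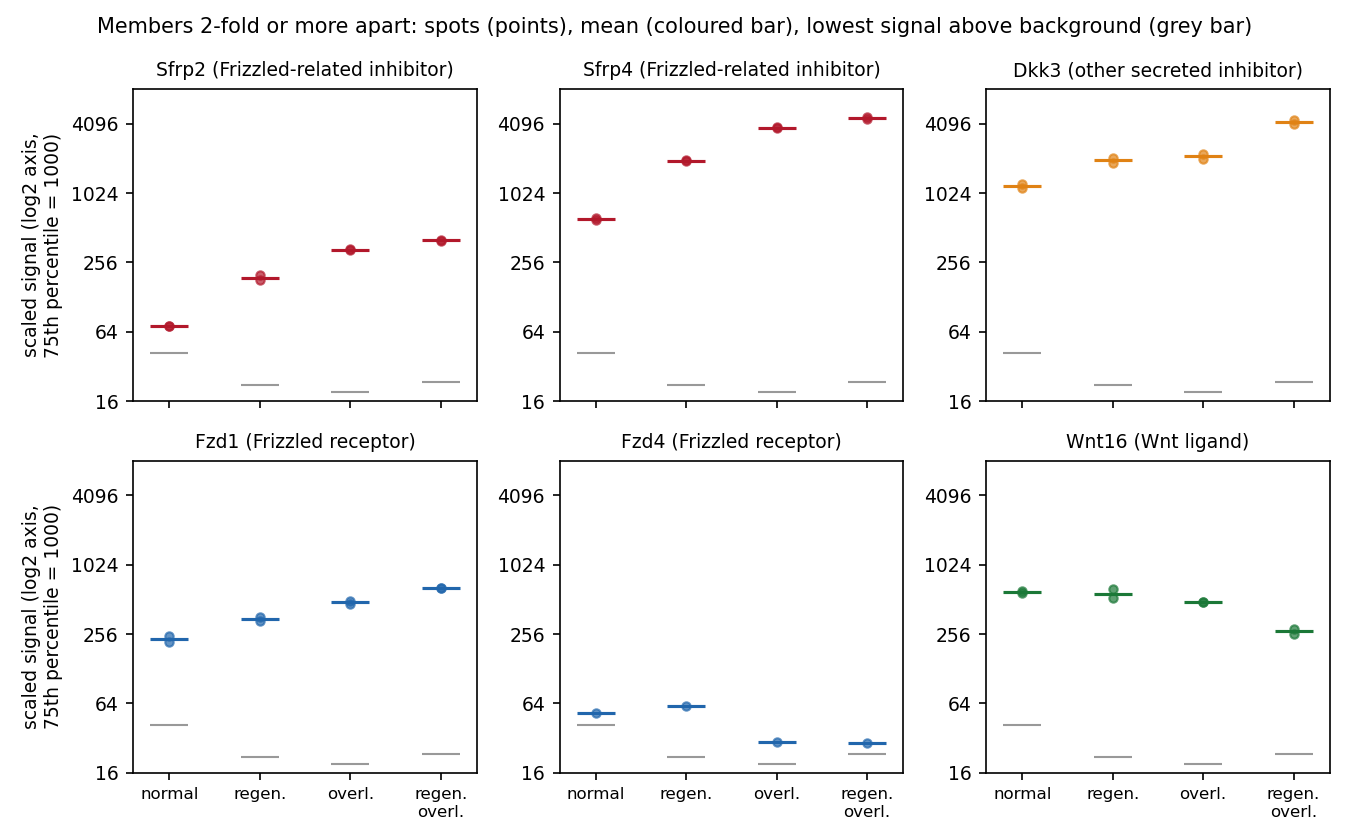
Scaled processed signal (log2 axis, 75th percentile of each array = 1000) of the 6 members 2-fold or more apart, by array (regen., regenerated; overl., overloaded): points are single spots, coloured bars their mean and grey bars the lowest signal called well above background. Sfrp4 runs from 611 in normal to 4574 in regenerated overloaded muscle, and Fzd4, on 1 spot, lies near the grey bars.

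The overload difference of both genes was smaller in regenerated than in normal muscle. These 2 differences share no array. The difference of differences, overload in regenerated minus overload in normal muscle, was -1.41 for Sfrp4 (technical SE 0.092) and -1.12 for Sfrp2 (technical SE 0.33; -0.47 with normexp). Of 16 members above background on all 4 arrays these were the 2 past 2-fold, both in the negative direction, against 0.915% of all 14862 genes in either direction (0.437% positive and 0.478% negative). The median over the 16 members was 0.01 and over all genes 0.08. With 1 array per group the difference was not tested against variation between animals.

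The summed signal of a fibroblast marker list had the same order of arrays. The list holds 9 genes, of which Pdgfra, Dcn, Lum, Col1a1, Col3a1, Thy1 and Osr1 had a probe, and its summed scaled signal was 59616 in normal, 120752 in regenerated, 163808 in overloaded and 207330 in regenerated overloaded muscle. Most of the summed signal on each array came from Dcn, Col1a1 and Col3a1. Of the 7, 6 were above background on the normal array, all but Thy1, and 7 on the other arrays. Of the 6 markers above background on all arrays, 4 (Pdgfra, Lum, Col1a1 and Col3a1) had this order singly, while Dcn and Osr1 did not. Their difference of differences had a median of -0.59 and ran from -1.29 for Col3a1, type III collagen, the 1 past 2-fold, to 0.17 for Lum, lumican. The macrophage list summed to 27528, 42945, 45564 and 49911, most of it from Lyz2, lysozyme, which alone read 24938 to 44888. Of its 6 markers, all above background on each array, 3 (Adgre1, Cd163 and Lyz2) had this order, and Itgam had the reverse, from 132 down to 88.7. The smooth muscle and pericyte list also rose in this order, to sums of 8172, 9236, 9468 and 10702, and 4 of its 6 markers did so singly. The satellite cell list summed to 1074, 1253, 1284 and 1402, again in this order. Of its 3 markers above background on all arrays, 0 had it singly. Vcam1, the brightest of them, read 566, 816, 796 and 982, and the rise of the sum came from this gene. Myf5 read 443, 363, 417 and 367 and Calcr 54.6, 64.6, 63.9 and 47.8, both lower at the end than in normal muscle. Pax7 was not above background on any array. Tendon and cartilage markers summed to 24860, 20751, 20635 and 36628, most of it from Scx and Fmod. Of the 6 above background on all arrays, 5 had a difference of differences past 2-fold, each positive (median over the 6 of 1.45). Kera, another of them, was -1.59 in regenerated against normal muscle. The part of these cells in the Sfrp and other results was not tested, and in whole muscle more cells of a type and more RNA per cell cannot be told apart.

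Of the other Frizzled-related inhibitors, Sfrp1 was not above background in normal muscle and read 44.0, 50.7 and 63.3 in regenerated, overloaded and regenerated overloaded muscle. Its difference between the regenerated overloaded and regenerated arrays was 0.53 (technical SE 0.29). Frzb, an inhibitor abundant in cartilage, read 66.1, 90.8, 60.6 and 95.9, higher on both arrays of injured muscle, with 0.46 (technical SE 0.33) between regenerated and normal and 0.66 (technical SE 0.26) between regenerated overloaded and overloaded muscle. One of its 2 spots lay in the outer rows of the array. Sfrp5, on 1 spot, was 184 in normal muscle and between 141 and 142 on the other arrays, and its dimmer probe, not above background in normal muscle, read 44.7, 51.3, 56.9 and 40.8, so that it lay on the other side of the normal array in regenerated and overloaded muscle and on the same side in regenerated overloaded muscle.

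Dkk3 had a scaled signal of 1188 in normal, 1967 in regenerated, 2125 in overloaded and 4232 in regenerated overloaded muscle. The array with both injury and overload stood above the other 3. It was 2.15-fold higher in regenerated overloaded than in regenerated muscle (log2 difference 1.11, technical SE 0.057) and 1.99-fold higher than in overloaded muscle (0.99, technical SE 0.055), just under the limit. Regenerated and overloaded muscle had 1.66-fold and 1.79-fold more than normal muscle (0.73 and 0.84, technical SE 0.065 and 0.064). Unlike the Sfrp pair, its difference of differences was positive, 0.27 (technical SE 0.086). Dkk2, which acts on the LRP co-receptor, was dim, at 24.0, 23.0 and 25.6 on the 3 arrays where it was above background.

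Among the receptors, Fzd1 read 232, 345, 483 and 645 in normal, regenerated, overloaded and regenerated overloaded muscle. It was 2.09-fold higher in overloaded than in normal muscle (log2 difference 1.06, technical SE 0.099), 1.60-fold with normexp, and 1.87-fold higher in regenerated overloaded than in regenerated muscle (0.91, technical SE 0.074). Regenerated muscle had 1.49-fold more than normal muscle (0.57, technical SE 0.100). Median and quantile scaling put the overload difference in normal muscle just under 2-fold, down to 0.95 on the log2 scale.

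Fzd4, a receptor known for its role in blood vessels, went the other way on a single dim spot, with 53.0 and 60.3 in normal and regenerated muscle against 29.5 and 29.2 in the 2 overloaded groups. The log2 difference was -1.05 (technical SE 0.71) in regenerated overloaded against regenerated muscle and -0.85 (technical SE 0.69) in overloaded against normal muscle, and the technical 95% interval of each included 0. With normexp the first was -0.39, and quantile scaling put the second at -1.03. The 5 endothelial markers (Pecam1, Cdh5, Kdr, Tek and Vwf) summed to between 11799 and 12708 on the 4 arrays. Of them, 4 of 5 were above background on the normal array and 5 of 5 on the others. The sum hides markers that differ in direction. Cdh5 read 1279, 1091, 1061 and 907 in normal, regenerated, overloaded and regenerated overloaded muscle, against 4135, 4842, 4714 and 5432 for Pecam1. A link between Fzd4 and these cells was not tested.

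The other receptors differed less. Fzd8 read 71.7, 53.9, 79.7 and 88.1, with 0.71 (technical SE 0.24) between regenerated overloaded and regenerated muscle. Fzd2 was above background on the 3 arrays other than normal, at 42.3, 55.7 and 53.1. Fzd9 read 1284, 1033, 1141 and 891, lower on both arrays of injured muscle (-0.31, technical SE 0.064, and -0.36, technical SE 0.062), without reaching 2-fold. Fzd10, on 1 spot, read 3038, 2517, 3310 and 2569, and so was also lower on the arrays of injured muscle. Fzd6 lay between 136 and 171 on its brightest probe, which has 2 spots. Its dimmer probe, with 10 spots, was not above background in normal muscle, where it read 48.5, and read 79.0, 84.0 and 90.6 on the other arrays. With that normal value taken as read, the dimmer probe differed by 0.70 and 0.79 in regenerated and overloaded against normal muscle. The brightest probe gave 0.01 and 0.16, so the 2 probes differ in size.

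Of the 8 ligands above background on at least 1 array, Wnt16 was the 1 past 2-fold. Wnt16, a ligand known from bone and joint tissue, read 597 in normal, 573 in regenerated, 489 in overloaded and 272 in regenerated overloaded muscle. The last array stood below the other 3, whose spots lay between 487 and 629. Regenerated overloaded muscle had 2.11-fold less than regenerated muscle (log2 difference -1.08, technical SE 0.086) and 1.80-fold less than overloaded muscle (-0.85, technical SE 0.088). Injury without overload and overload without injury gave -0.06 (technical SE 0.077) and -0.29 (technical SE 0.079). With normexp the difference from regenerated muscle was 1.84-fold.

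The remaining ligands were mostly dim. Wnt10b, a ligand known to hold back fat cell formation, was not above background in normal muscle. It read 56.7, 42.1 and 44.2 on the other arrays. Its smallest difference between regenerated and normal muscle was 1.36-fold (log2 difference 0.44). This bound uses the normal array's lowest signal above background, not the normal spots. The technical SE of 0.55 also counts the scatter of dim spots on the normal array, so it does not describe the bound. On the regenerated array alone the technical SE was 0.15, with spots at 48.7 and 66.1. Wnt5b was dim, between 28.6 and 39.3, and 1 of its 2 spots in normal muscle, at 32.9, lay under the limit of 41.8. Wnt5a, a ligand of the branches that do not use beta-catenin, read 46.5, 54.6 and 52.8 on the 3 arrays other than normal. Wnt7a, known for its effect on satellite cells and fibre size, read 66.7 in normal muscle and between 58.7 and 59.3 on the others. Wnt1 lay between 191 and 201 and Wnt11 between 170 and 198. Where they were above background on both arrays compared, Wnt1, Wnt5a, Wnt7a, Wnt11, Fzd3, Fzd6, Fzd9, Fzd10 and Sfrp5 had log2 differences between -0.39 and 0.34 in the 4 comparisons. Against normal muscle Wnt5a and Fzd3 have only a smallest difference, and Wnt9b has no pair of arrays with both values above background.

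**Figure D2:**
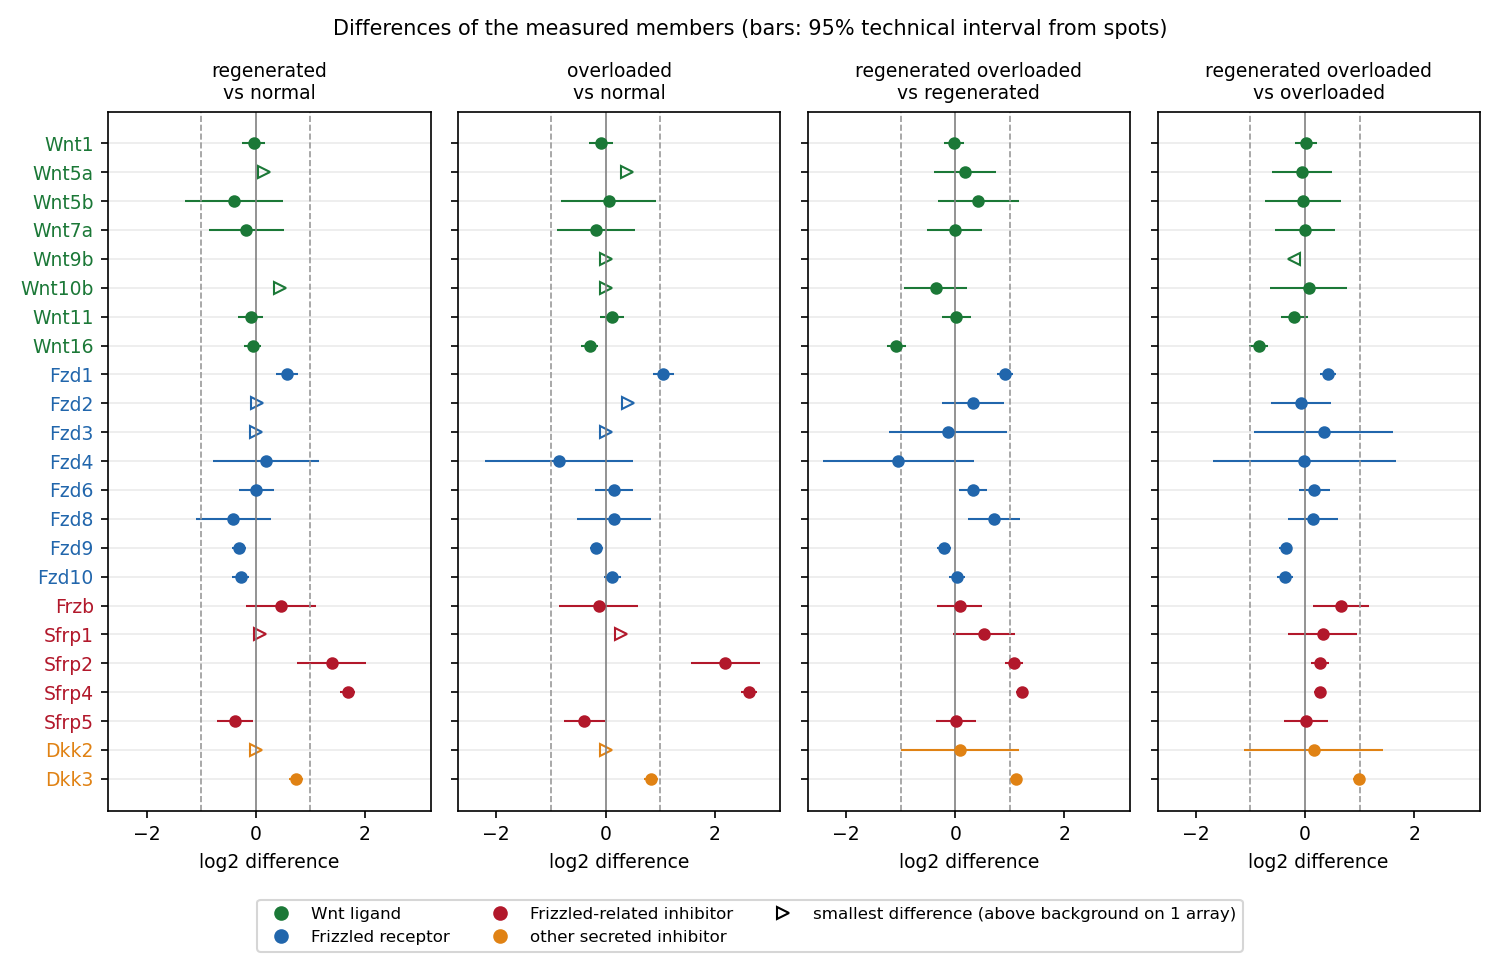
Log2 difference of each of the 23 members above background on at least 1 array, in the 4 comparisons: points are members above background on both arrays with their technical 95% interval, triangles the smallest difference of members above background on 1 array, and dashed lines 2-fold. Sfrp4 and Sfrp2 stand to the right in the first 3 panels, and in the panel of the 2 overloaded groups all members lie inside the dashed lines.

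In counts, 2 of 22 members measured between regenerated and normal muscle were 2-fold or more higher (Sfrp2 and Sfrp4) and none was lower, against 2.03% of all genes in either direction, 1.22% higher and 0.812% lower. Between overloaded and normal muscle 3 of 23 were higher (Sfrp2, Sfrp4 and Fzd1) and none lower, against 3.24% of all genes, 2.34% higher and 0.901% lower. Between regenerated overloaded and regenerated muscle 3 of 22 were higher (Sfrp2, Sfrp4 and Dkk3) and 2 lower (Wnt16 and Fzd4), against 2.02% of all genes, 1.58% higher and 0.442% lower. No member of 23 was 2-fold apart between regenerated overloaded and overloaded muscle, against 1.77% of all genes, 1.07% higher and 0.696% lower, and there Dkk3 at 0.99 and Wnt16 at -0.85 had the widest differences.

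The medians lay near 0. For members above background on both arrays the median log2 difference was -0.05, 0.09, 0.09 and 0.04 in the order of comparisons just given, beside -0.11, -0.12, -0.02 and -0.01 over all genes. Over the other scalings the median of all genes ran from -0.19 to 0.03 in the first comparison and from -0.23 to 0.06 in the second, so that differences of that size have no settled sign. The calls nearest to the limit were Fzd4 at -1.05 and Fzd1 at 1.06 just inside, and Dkk3 at 0.99 and Fzd1 at 0.91 just outside.

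Overload in normal and in regenerated muscle could be read side by side from separate arrays. Of 16 members above background on all 4 arrays, 14 differed in the same direction in both, 87.5% against 73.3% of the 14862 genes above background on all 4. Sfrp2 and Sfrp4 were past 2-fold in both, 2 of the 3 called in normal and 2 of the 5 called in regenerated muscle. Of the same 14862 genes, 88 were past 2-fold in the same direction in both, of 397 called in normal and 153 in regenerated muscle. Fzd1 and Dkk3 were 1.06 and 0.84 in normal and 0.91 and 1.11 in regenerated muscle, while Wnt16 was -0.29 and -1.08. Earlier injury without and with overload, also on separate arrays, gave 12 of 16 members in the same direction, 75% against 65.3% of the 14862 genes. No member was past 2-fold in both, against 26 of the 14862 genes.

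**Figure D3:**
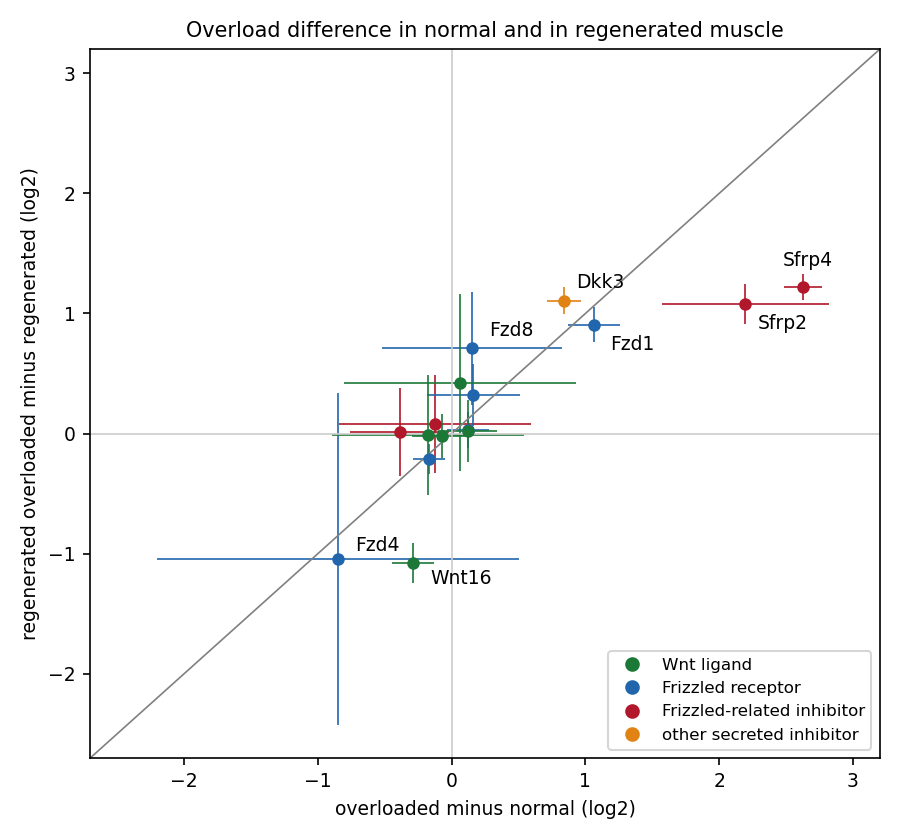
Log2 overload difference in normal muscle (x axis) and in regenerated muscle (y axis) of the 16 members above background on all 4 arrays, with technical 95% intervals and the line of equal difference. Sfrp4 and Sfrp2 lie below the line, at 2.63 and 2.20 against 1.22 and 1.08, while Dkk3 and Fzd1 lie near it and Wnt16 near -1.08 on the y axis.

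Of 78 other genes of the pathway, 65 had a probe. Between regenerated and normal muscle 1 of 54 measured genes was higher and none lower. That gene was Apcdd1, a membrane inhibitor induced by Wnt signals, with 290 in normal, 605 in regenerated, 345 in overloaded and 492 in regenerated overloaded muscle (log2 difference 1.06, technical SE 0.14, on 1 spot). Between overloaded and normal muscle 1 of 56 was higher and none lower. It was Ccn4, a matricellular protein first described as a Wnt target, with 96.7, 148, 196 and 289 in the same order (log2 difference 1.02, technical SE 0.25). None of 55 and none of 57 passed 2-fold in regenerated overloaded against regenerated and against overloaded muscle. Median scaling and normexp ended both calls, the mean over probes and leaving out probes with 1 spot ended that of Apcdd1, and quantile and cyclic loess scaling ended that of Ccn4.

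The feedback gene Axin2, a direct target of beta-catenin signalling, was not above background in normal muscle and read 35.7, 33.9 and 25.8 on the other arrays, with no fold over the limit of the normal array. Nkd1 was above background in overloaded muscle alone, and neither probe of Lef1 was above background on any array. Ccnd1 and Myc, growth genes that Wnt signals among others induce, differed by 0.16 and 0.56 between regenerated and normal muscle, and Myc was -0.46 in regenerated overloaded against regenerated muscle. Of 11 feedback and target genes, 8 were measured between regenerated and normal muscle, with a median of 0.51 against -0.06 over all genes. In the other comparisons, in the order given before, their median was 0.13, 0.04 and 0.02. Nkd2, on 1 spot, read 218, 301, 235 and 319 in the same order of groups, and Bambi 395, 275, 385 and 333. Twist1 was not above background in normal muscle and read 86.9, 86.6 and 133 on the other arrays. The beta-catenin gene Ctnnb1 lay between 349 and 373 on the 4 arrays, and its partners in the destruction complex Axin1, Gsk3b and Apc lay between -0.30 and 0.19 on the log2 scale in each comparison. Apc2 lay outside this range, at 0.60 (technical SE 0.045) between regenerated and normal muscle and 0.21 between overloaded and normal muscle. It read 234, 355, 272 and 307 in the same order of groups. Csnk1a1 lay between 1910 and 1950 and Gsk3a between 81.4 and 99.2.

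Among the agonists, Rspo3, an R-spondin that strengthens Wnt signals by protecting Frizzled receptors from turnover, read 2304 in normal, 1228 in regenerated, 1271 in overloaded and 731 in regenerated overloaded muscle. It had the lowest difference of all 54 measured pathway genes between regenerated and normal muscle, -0.91 (technical SE 0.058), was -0.86 in overloaded against normal muscle, and was -0.75 and -0.80 in the other 2 comparisons. No single comparison reached 2-fold, and Rspo3 is named here after its values were seen. Rspo1 read 58.8, 83.1, 66.9 and 79.7. Nfatc4, a transcription factor of the calcium branch, read 659, 1163, 1140 and 1722 and was also under 2-fold in each comparison, at 0.82, 0.79, 0.57 and 0.60.

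**Figure D4:**
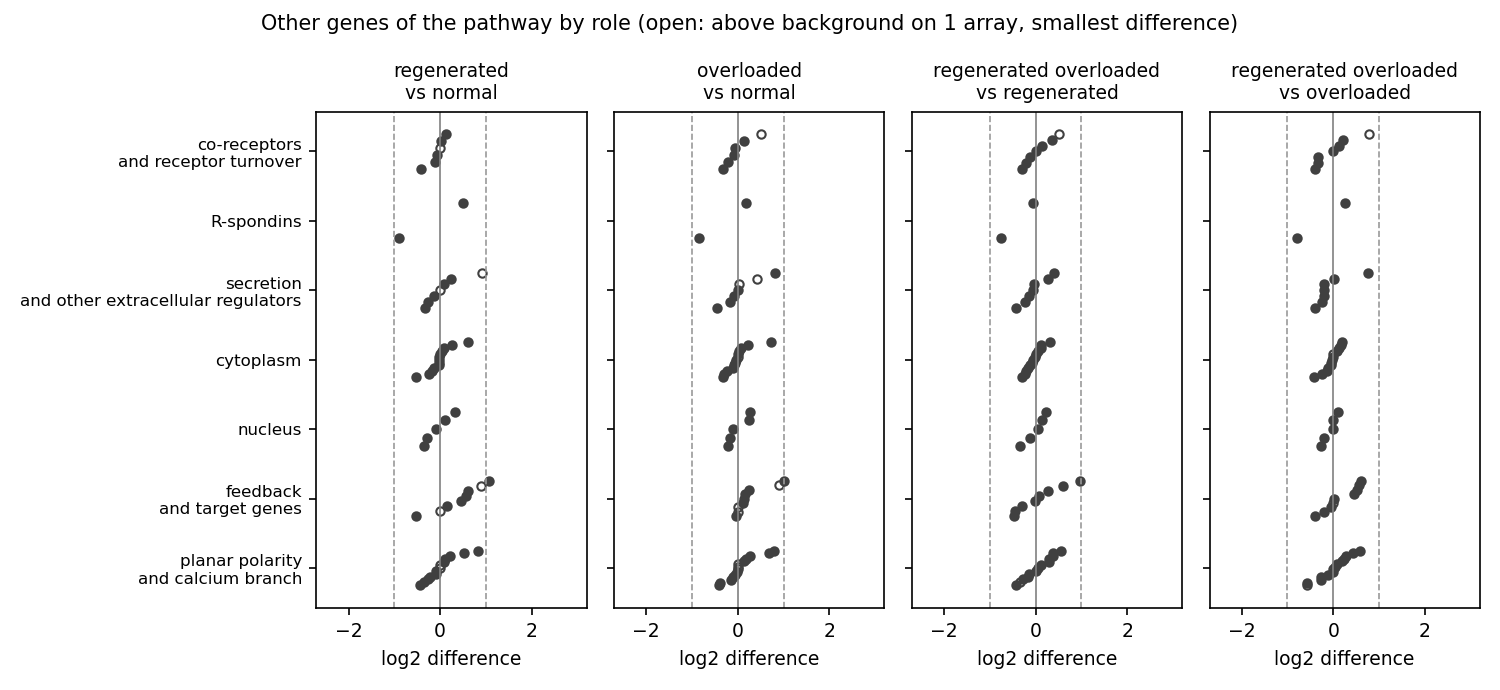
Log2 differences of the other pathway genes by role in the 4 comparisons, with filled points for genes above background on both arrays, open points for the smallest difference of genes above background on 1 array, and dashed lines at 2-fold. Apcdd1 (1.06) and Ccn4 (1.02) are the 2 genes past a dashed line, and Rspo3 is the low point among the R-spondins in each panel.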

How the data were processed

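Per the labels, RNA was isolated from muscle pieces (Isogen reagent) and copied into Cy3 cRNA, with 1 Agilent array per group. The authors deposited scanner files whose processed signal is an intensity, background-subtracted and detrended by the scanner software but not scaled between arrays, with raw median and local background intensities and flags as other columns (0 or 1). Per the file headers the software was Feature Extraction 11.5.1.1 with protocol GE1_1105_Oct12 and probe design build rn4, and 10.10.1.1 is the version in the submitters' processing notes. Their deposited series table holds linear, uncentred intensity: each array's processed signal multiplied by a constant (2.14, 2.10, 1.95 and 2.02) whose basis is not stated, with column medians of 182, 212, 222 and 226.

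Outlier spots, 406 to 451 on each array, were excluded and none was saturated. Signals were divided by the array's 75th percentile and log2-transformed, spots of a probe were averaged, and each gene was read from its brightest probe. A probe was above background where at least 1 in 2 of its spots carried the flag. Technical SE used the SD between spots pooled in 20 bins of signal. Of 30367 probes, 18643 matched 15637 symbols through RefSeq accessions (GRCr8 table), which was used for names and for promoter sequences. Python 3.11.15, numpy 2.4.6, pandas 2.3.3 and limma 3.58.1 (R 4.3.3) were used, and the steps were tested on simulated spots.

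Members with every-array values were those past 2-fold in a comparison or in the difference of differences, then the 2 per role with the widest difference, and other members are given by range. Other pathway genes are named where past 2-fold, with further examples by role. Members and lists were chosen with earlier results of these data known. The scanner files have no mean signal column here, so normexp (offset 50) used the median signal. The limit of 2-fold has no test behind it. The number of arrays limits the precision.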

Additional observations from a re-analysis of the deposited data

How the results depend on the processing

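Over 106 member differences and 12 alternatives, no difference past 2-fold changed sign, and 1205 of 1237 values stayed within the technical 95% interval of the reported one. Sfrp4 stayed past 2-fold under all 12 in the 3 comparisons where it was called and in the difference of differences. Dkk3 in regenerated overloaded against regenerated muscle and Sfrp2 in overloaded against normal muscle did so too. Dkk3 was, however, 0.98 at the smallest difference between spots. Not all 12 alternatives could move these values. For a gene with 1 probe above background on every array, averaging over probes or dropping the filter on dim probes returns the same value. Such unchanged values are counted among the 1205. With normexp, scaled to the 75th percentile or by quantiles, the count of members was 1 in place of 2 in regenerated against normal muscle, 2 in place of 5 in regenerated overloaded against regenerated muscle, and 1 in place of 2 in the difference of differences. The same 5 were 2 at the smallest difference between spots (Fzd4 and Sfrp4). Fzd4 has 1 spot, so this setting could not change its value and is no check of it. Without the filter on dim probes the counts were 5, 9, 5 and 1 in the 4 comparisons and 9 in the difference of differences, where all genes gave 9.17%, 21.4%, 5.49%, 5.40% and 21.1%. At 1.5-fold they were 3, 5, 7 and 3, beside 8.17%, 11.2%, 7.09% and 5.55% of all genes, and cyclic loess gave 1 (Dkk3) in place of 0 between the overloaded groups. Among all genes, normexp with the 75th percentile left 103, 194, 103 and 70 called in place of 356, 583, 361 and 323.

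For the other pathway genes, the 1 call in regenerated against normal muscle was 0 with median scaling, either normexp setting, the mean over probes and without probes printed once, 2 with cyclic loess, 3 with the authors' table, and 7 without the filter or at 1.5-fold. The 1 call in overloaded against normal muscle was 0 with median, quantile and cyclic loess scaling, either normexp setting and the smallest difference between spots, 3 with the authors' table, and 7 without the filter or at 1.5-fold. The 0 calls in regenerated overloaded against regenerated muscle became 1 with the authors' table, 1 without the filter and 3 at 1.5-fold, and those against overloaded muscle 2 and 5 without the filter and at 1.5-fold. The causes were not tested. No paired analysis was possible because each group has 1 array and the labels give no replicate numbers.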

Other observations

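Of the 16 members above background on all 4 arrays, 5 (Sfrp2, Sfrp4, Dkk3, Fzd1 and Fzd6) were ordered normal, regenerated, overloaded, regenerated overloaded from lowest to highest, 31.3% against 10.7% of all 14862 genes and 5 of 46 other pathway genes. The order was chosen after the values were seen, and Fzd6 differed by 0.01 (technical SE 0.17) between regenerated and normal muscle.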
